A study of Mus musculus with 12 samples.

Results

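The 10 genes considered here belong to the RGS family (regulators of G-protein signaling) and were followed in the mouse prefrontal cortex after repeated cocaine. The members were taken by gene name: Rgs2, Rgs4, Rgs7, Rgs8, Rgs9, Rgs10, Rgs12, Rgs14, Rgs16 and Rgs20, which are 10 of the 39496 gene names in the 2 h table, 39555 in the 24 h table and 39448 in the 7 d table. The animals were adult male C57BL/6 mice (substrain J per the study's methods) of 10 weeks that received daily intraperitoneal injections of cocaine or, as control, of saline. Tissue was collected at 2 h, 24 h or 7 d from the final dose, which gave 6 groups of 2 libraries, each made from the pooled cortex of 5 mice. The dissected block spanned several frontal areas, among them prelimbic and orbital cortex, so each value is an average over all cell types of that block, in which fewer cells of a type and less RNA per cell cannot be told apart.

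RGS proteins bind the active, GTP-bound alpha subunit of a G protein and speed up GTP hydrolysis, which ends the signal of a G-protein-coupled receptor. They set the strength and duration of responses to dopamine, serotonin, glutamate, acetylcholine and opioids. The members fall into 4 classes: R4 (Rgs2, Rgs4, Rgs8 and Rgs16), small proteins built around the RGS domain; R7 (Rgs7 and Rgs9), which work as a complex with the beta subunit Gnb5; R12 (Rgs10, Rgs12 and Rgs14), of which Rgs12 and Rgs14 are larger multidomain proteins; and RZ (Rgs20), which acts on Gz.

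The deposited tables give 1 FPKM per group (fragments mapped to a transcript, scaled to its length in kilobases and to the size of the library), which the authors pooled over both libraries. With 1 value a group there is no spread between replicates and no test, so every difference below is a description without a replicate check. The paper gives the number of reads only as a range over the libraries, so the reads behind a single value are unknown. A log2 fold is the log2 of cocaine over saline after 0.1 FPKM was added to each. A gene was counted as past the fold limit when, on this scale, cocaine was at least 25% above saline or at least 20% below it (0.32 or more on the log2 scale in either direction). Only genes whose mean over both groups reached 1 FPKM were counted (13262, 13477 and 13310 genes at 2 h, 24 h and 7 d). The 3 saline groups came from separate mice and libraries, and their range is given beside the differences, although each time point was normalized as a table of its own and time differs too. As a check of the tissue, the cortical excitatory markers Slc17a7 and Tbr1 were at 466 to 532 FPKM and 27.6 to 33.5 FPKM over the 6 groups, and the olfactory bulb list summed to at most 0.849 FPKM. Of the 5 excitatory markers only Neurod6 was past the fold, at 7 d (37.2 FPKM in saline, 28.1 in cocaine). The choroid plexus gene Ttr differed more, at 1.9, 1.8 and 0.284 FPKM in saline and 0.461, 1.1 and 6.54 in cocaine at 2 h, 24 h and 7 d. The rest of that list, Folr1, Kl and Clic6, stayed below 1 FPKM and did not follow Ttr. Their log2 folds at these times were 0.05, -0.03 and -0.98 for Folr1, 0.27, 0.06 and 0.41 for Kl, and 0.32, 0.25 and -0.33 for Clic6. The oligodendrocyte markers had median log2 folds of -0.13, -0.22 and -0.03 over the 3, 4 and 5 genes kept at 2 h, 24 h and 7 d. These are not the same genes, since Mag and Mobp were not found by name at 2 h and Mobp was below 1 FPKM at 24 h. The part of unequal tissue make-up in the members' values was not tested.

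All 10 members were above 1 FPKM in each of the 6 groups, and within a group the highest was 112 to 180 times the lowest. Rgs4, a brake on Gi and Gq signaling in cortical neurons, was the most abundant. Its saline and cocaine groups stood at 248 and 246 FPKM 2 h after the last dose, 236 and 249 after 24 h, and 259 and 242 after 7 d. It gave 60.1 to 61.6% of the summed level of the 10 members in every group. The next in order was Rgs7, at 38.3 to 40.8 FPKM over the 6 groups, followed by Rgs10 at 28.8 to 34.6. Rgs14 (22.3 to 24.2) and Rgs20 (22.1 to 23.1) had overlapping ranges, and so did Rgs8 (12.7 to 16.1) and Rgs2 (12.7 to 17.4). Rgs12 lay at 8.04 to 9.88 FPKM. The lowest levels were those of Rgs16 (2.31 to 2.97) and Rgs9 (1.37 to 2.41), whose ranges overlapped. The summed level of the 10 members was 407, 391 and 420 FPKM in the saline groups of 2 h, 24 h and 7 d and 409, 410 and 396 FPKM in the cocaine groups, so the cocaine sums lay inside the range of the saline sums.

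**Figure D1:**
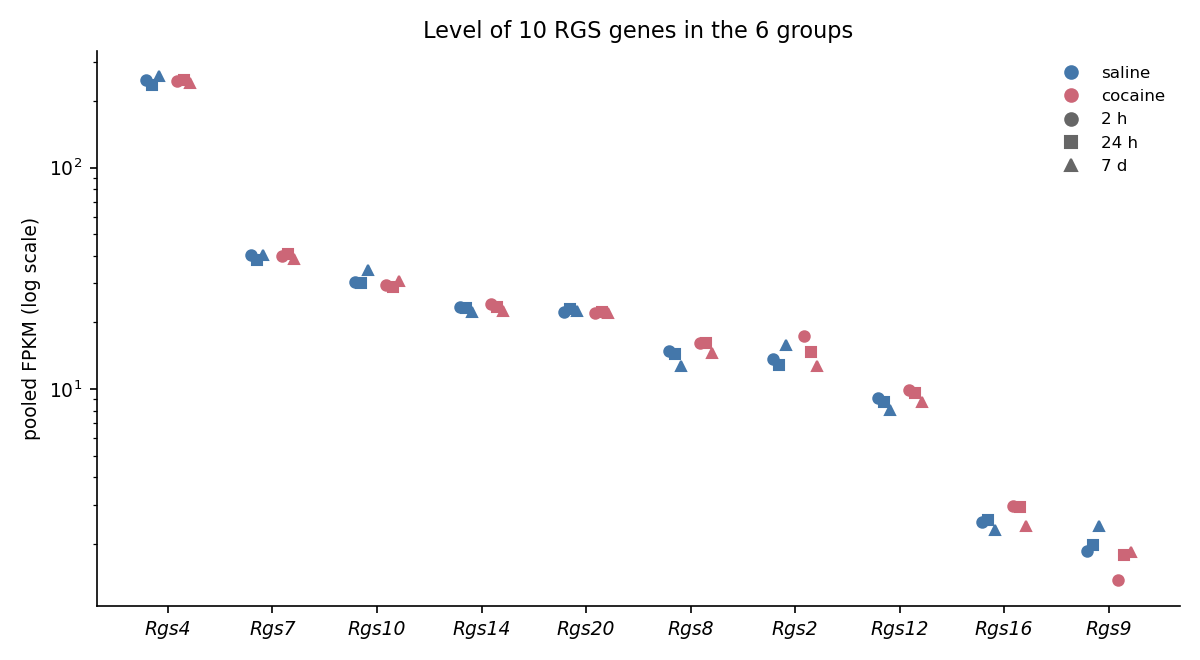
Pooled FPKM (log scale) of the 10 RGS genes in the 6 groups, ordered by mean level, with saline in blue, cocaine in red, and circles, squares and triangles for 2 h, 24 h and 7 d. Rgs4 lies at 236 to 259 FPKM in all 6 groups, Rgs16 and Rgs9 lie under 3, and saline and cocaine sit close together for most members.

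For 8 of the 10 members the cocaine and saline levels were within the fold limit at all 3 time points, and 77.7% of the 12613 genes that passed the level minimum at each time point did the same. The other members were Rgs2 and Rgs9, which gave 4 of the 30 pairs of gene and time point past the fold. At 2 h 1 member was higher in cocaine (Rgs2; 7.2% of all genes were) and 1 was lower (Rgs9; 5.23% of all genes). At 24 h no member was higher (4.13% of all genes) and none was lower (3.81%). At 7 d no member was higher (5.2%) and 2 were lower (Rgs2 and Rgs9; 7.82%). The median log2 fold of the members was 0.01, 0.09 and -0.04 at 2 h, 24 h and 7 d, beside 0.02, 0.01 and -0.01 for all genes. The median size of the log2 fold, without its sign, was 0.08, 0.12 and 0.11 for the members and 0.11, 0.09 and 0.13 for all genes.

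**Figure D2:**
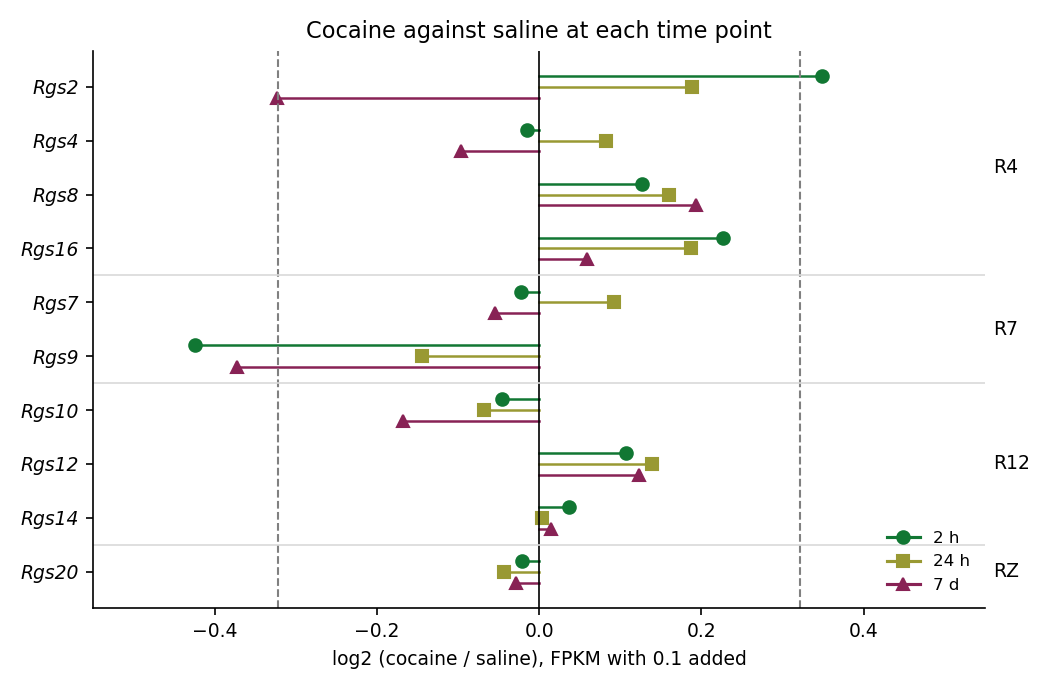
Log2 of cocaine over saline (FPKM with 0.1 added) of each RGS gene at 2 h (circles), 24 h (squares) and 7 d (triangles), grouped by class, with dashed lines at the fold limit. Only Rgs2 (0.35 at 2 h and -0.32 at 7 d) and Rgs9 (-0.42 at 2 h and -0.37 at 7 d) reach the lines.

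Rgs2, an R4 member with a preference for Gq that is known as a fast-induced gene in neurons, was the member whose difference between cocaine and saline changed most over time. It lies on chromosome 1, 143999338 to 144004161 of GRCm38. The saline groups stood at 13.7, 12.9 and 15.9 FPKM at 2 h, 24 h and 7 d, and the cocaine groups at 17.4, 14.7 and 12.7. Cocaine was thus higher at 2 h and 24 h and lower at 7 d, and the ranges over time overlapped (12.9 to 15.9 in saline and 12.7 to 17.4 in cocaine). The log2 folds were 0.35, 0.19 and -0.32, which is a difference of 27.4%, 13.9% and -20.1% from saline. At 2 h 5.13% of the genes of like level had a difference as large in either direction, and at 7 d 9.16% had. The 2 h value of cocaine lay above all 3 saline groups, and Rgs2 was the 1 member both past the fold limit and above them at that time (5.12% of the 12613 genes were). The 7 d value lay below all 3 saline groups by a small margin, 12.7 against 12.9 FPKM at the lowest.

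The saline groups of Rgs2 differed among themselves by 1.23-fold with no cocaine given, close to the difference from cocaine at 7 d. The value at 7 d also stood at the threshold: it was no longer past the fold when the log2 folds were centred on the median of all genes (-0.31), when 1 FPKM was added (-0.30), or when the trend over transcript length (-0.32, just inside the limit) or over level (-0.30) was removed. It lay above the lowest saline group when the 3 tables were put on the same median level (13 against 12.8 FPKM). The log2 fold at 2 h exceeded that at 7 d by 0.67, and 3.62% of the 12613 genes differed by as much between these time points. Being past the fold upward at 2 h and downward at 7 d was seen for 1 member and for 0.729% of these genes. Over the same time points the 8 activity-regulated genes listed as markers (Arc, Fos, Fosb, Egr1, Egr2, Junb, Npas4 and Nr4a1) summed to 72.1, 102 and 55.2 FPKM in the saline groups and to 324, 199 and 100 FPKM in the cocaine groups. This sum was higher in cocaine at each time, whereas Rgs2 was lower at 7 d. Egr1, Arc and Junb gave the most to it (121, 77.8 and 61.6 FPKM in cocaine at 2 h), and Fosb was near level at 24 h (log2 fold -0.09) and 7 d (0.10). The part of the 8 genes in the Rgs2 values was not tested.

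**Figure D3:**
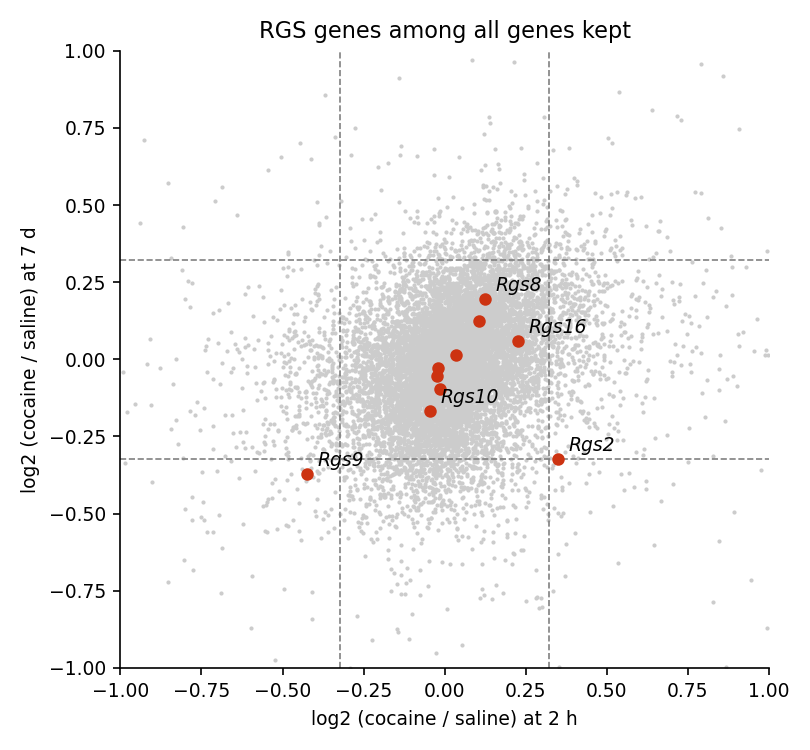
Log2 of cocaine over saline at 2 h against the same at 7 d for genes kept at all 3 time points (grey; 12383 of 12613 lie within the axes) and for the 10 RGS genes (red), with dashed lines at the fold limit. Rgs2 lies at 0.35 and -0.32, Rgs9 at -0.42 and -0.37, and the other 8 lie inside the lines.

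The promoters of Rgs2 and Rgs9 are shown because these were the members past the fold, and Rgs2 is often discussed as a target of cAMP-responsive transcription. Each is the 250 bases before the annotated start in the RefSeq table of GRCm38.p6, written 5′ to 3′ on the strand of the gene (minus in both cases), from chr1:144004150-144004399 for Rgs2 and chr11:109298182-109298431 for Rgs9. Capitals mark the half-site of the cAMP response element, TGACG, searched on both strands.
Rgs2: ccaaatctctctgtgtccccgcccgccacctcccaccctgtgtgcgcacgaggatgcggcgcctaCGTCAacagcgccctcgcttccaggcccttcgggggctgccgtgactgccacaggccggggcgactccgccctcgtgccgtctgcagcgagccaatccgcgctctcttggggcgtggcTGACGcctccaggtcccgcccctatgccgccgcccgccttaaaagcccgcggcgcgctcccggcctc
Rgs9: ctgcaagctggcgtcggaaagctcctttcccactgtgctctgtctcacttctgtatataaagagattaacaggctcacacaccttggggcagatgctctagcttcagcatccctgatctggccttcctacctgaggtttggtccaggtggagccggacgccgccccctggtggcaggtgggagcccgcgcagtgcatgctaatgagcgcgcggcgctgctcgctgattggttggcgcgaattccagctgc
The Rgs2 window held 2 half-sites, which begin 185 and 67 bases before the start, and the Rgs9 window held none. Of the 10 members 8 were in the table, with 11 windows. A half-site stood in 4 of these windows, 1 each of Rgs2, Rgs4, Rgs8 and Rgs12, beside 17.8% of all 32851 windows of the same length. The full element TGACGTCA, which contains the half-site, was in none of the 11 windows and in 1.55% of all. The AP-1 motif TGANTCA was in 1 window, of Rgs12, and in 6.75% of all. The part of these letters in any value was not tested.

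Rgs9, an R7 member best known from the striatum, where its long form limits dopamine and opioid receptor signaling, had the lowest mean level of the members over the 6 groups, although Rgs16 was below it in saline at 7 d (2.31 against 2.41 FPKM) and in both groups at 24 h when the Rgs9 rows were summed. Rgs9 was lower in cocaine at each time point, except that the groups were level at 24 h when its rows in that table were summed. It lies on chromosome 11, 109225343 to 109298159 of GRCm38. The saline groups stood at 1.87, 1.98 and 2.41 FPKM at 2 h, 24 h and 7 d, and the cocaine groups at 1.37, 1.79 and 1.84. All 3 cocaine groups were below all 3 saline groups, but the gap was 0.0284 FPKM. The log2 folds were -0.42, -0.14 and -0.37, which is 1.34-fold, 1.11-fold and 1.29-fold lower. Among genes of like level, 18.1% at 2 h and 17.7% at 7 d differed as much, and the saline groups themselves spanned 1.29-fold.

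The Rgs9 values depend on how the tables are read. In the 24 h table Rgs9 stands on 3 rows with the same position. The row above has the highest level, and the other rows gave 0.8 and 0.872 FPKM, and 0.452 and 0.585 FPKM, in saline and cocaine, with cocaine higher in each. Summed over the 3 rows, both groups were at 3.24 FPKM at 24 h (log2 fold 0.00), and the separation of the groups was lost. It was also lost when the tables were put on the same median level (1.85 to 2.47 FPKM in saline and 1.35 to 1.88 in cocaine). With 1 FPKM added, the log2 folds at 2 h and 7 d were -0.28 and -0.26, inside the fold limit.

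Because Rgs9 is enriched in striatal neurons, the striatal marker list is given beside it. Of its 11 symbols 10 were found and 6 had a mean over both groups above 1 FPKM. None of the 10 was at 0 in both groups, and the summed level was 141 to 154 FPKM in the saline groups and 147 to 163 in the cocaine groups. The median log2 fold of the 6 was 0.20, 0.05 and 0.10 at 2 h, 24 h and 7 d. It leaves out the symbols found below 1 FPKM, which were Drd1a, Drd2, Gpr6 and Sh3rf2. Their log2 folds, from such low values, were mixed. They were -0.46, 0.12 and -0.16 for Drd1a and -0.34, -0.13 and -0.12 for Drd2. For Gpr6 they were -0.45, 0.10 and -0.39, and for Sh3rf2 0.64, -0.32 and 0.19. Adora2a (log2 fold 0.38) and Pde10a (0.43) were higher at 2 h. At 7 d Adora2a was higher (0.68) and Tac1 lower (-0.62). Adora2a was itself close to the level minimum, at 1.02 and 1.35 FPKM in saline and cocaine at 2 h and at 0.805 and 1.35 at 7 d. The dopamine receptor genes themselves were below 1 FPKM. Drd1a was at 0.925, 0.665 and 0.858 FPKM in saline and at 0.648, 0.731 and 0.76 in cocaine at the 3 time points. Drd2 was at 0.211, 0.223 and 0.234 FPKM in saline and at 0.146, 0.196 and 0.208 in cocaine. The part of unequal amounts of striatal RNA in the Rgs9 values was not tested.

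**Figure D4:**
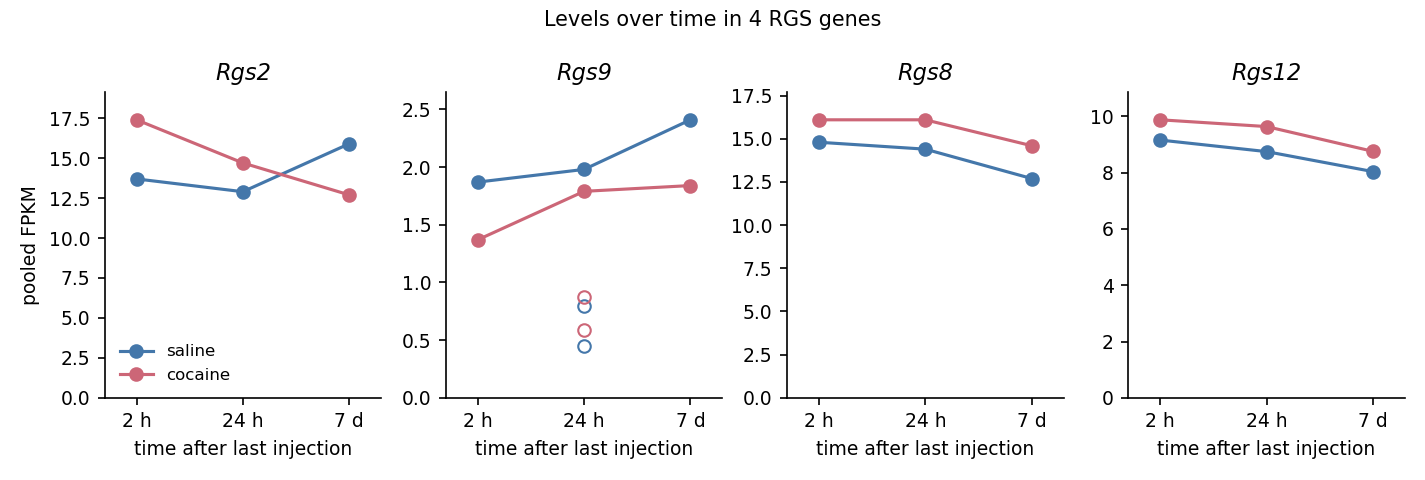
Pooled FPKM of Rgs2, Rgs9, Rgs8 and Rgs12 in saline (blue) and cocaine (red) at 2 h, 24 h and 7 d, with each axis starting at 0; open circles are the 2 further rows of Rgs9 in the 24 h table. The lines of Rgs2 cross between 24 h and 7 d, those of Rgs8 and Rgs12 keep cocaine above saline by 1.08-fold to 1.14-fold, and the open circles of Rgs9 have cocaine above saline.

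The 4 members of class R4 had a median log2 fold of 0.18 and 0.17 at the first and second time point and of -0.02 at 7 d. Those other than Rgs2 stayed inside the fold limit. Rgs8 (chromosome 1, 153652960 to 153700323), a neuronal RGS protein for Gi and Gq, was higher in cocaine at each time point. Its saline groups stood at 14.8, 14.4 and 12.7 FPKM and its cocaine groups at 16.1, 16.1 and 14.6. Its log2 folds were 0.13, 0.16 and 0.19. The ranges met, since cocaine at 7 d (14.6) was below saline at 2 h (14.8), and they were apart when the tables were put on the same median level (13 to 14.6 in saline and 14.9 to 16 in cocaine). Rgs16, which acts on Gi and Gq, lies 40 kb from Rgs8 on the same chromosome (153740349 to 153749324). It was at 2.52, 2.56 and 2.31 FPKM in saline and at 2.97, 2.93 and 2.41 in cocaine. Its log2 folds of 0.23, 0.19 and 0.06 were likewise all above 0. Rgs4 (chromosome 1, 169741477 to 169747642) had log2 folds of -0.01, 0.08 and -0.10, and the saline groups of Rgs4 spanned 1.1-fold.

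The R12 members were all inside the fold limit, with a median log2 fold of 0.04, 0.00 and 0.01. Rgs12 (chromosome 5, 34949445 to 35039644), a large protein with PDZ and GoLoco motifs, was higher in cocaine at each time point. It was at 9.16, 8.75 and 8.04 FPKM in saline and at 9.88, 9.64 and 8.76 in cocaine, and the ranges overlapped. The log2 folds of Rgs12 (0.11, 0.14 and 0.12) were the most even of the members with a difference over 0.1, and the saline groups spanned 1.14-fold. Rgs14 (chromosome 13, 55369479 to 55384687), which also binds Ras-family proteins and is best known from hippocampal field CA2, differed by 0.04, 0.00 and 0.01 on the log2 scale, at 22.3 to 23.6 FPKM in saline and 22.6 to 24.2 in cocaine. Of the 3 CA2 markers, Amigo2 and Cacng5 were near 1 FPKM and Map3k15 was at most 0.158 FPKM. The sum of these markers was 2.31 to 2.72 FPKM in saline and 2.68 to 3.25 in cocaine. Amigo2 was past the fold upward at 2 h (1.13 FPKM in saline and 1.64 in cocaine, log2 fold 0.51). Cacng5 was so at 7 d (0.896 and 1.21 FPKM, log2 fold 0.39). Rgs10 (chromosome 7, 128373621 to 128418843), a short RGS protein of neurons and microglia, was lower in cocaine at each time point as deposited. It was at 30.6, 30.2 and 34.6 FPKM in saline and at 29.6, 28.8 and 30.8 in cocaine. The log2 folds of Rgs10 were -0.05, -0.07 and -0.17.

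At 7 d the fold moved with transcript length across all genes, which bears on Rgs10, whose longest coding transcript has 880 nt. Genes of that length had a median log2 fold of -0.23 at 7 d, and relative to them Rgs10 was at 0.07, so its direction turned. The same step turned Rgs7 (1418 nt; 0.07) and Rgs20 (2125 nt; 0.04) at 7 d but not Rgs2 (3021 nt) or Rgs9 (3464 nt). Rgs9 was then at -0.39, and Rgs2 at -0.32 came just inside the fold limit, so that 1 member in place of 2 was past it downward at 7 d. The step brought Rgs8 (5818 nt) from 0.19 to 0.11 and Rgs12 (5472 nt) from 0.12 to 0.04 at 7 d. The 9 microglia markers, given because microglia express Rgs10, had median log2 folds of 0.12, -0.05 and -0.06 and summed to 242 to 254 FPKM in saline and 237 to 257 in cocaine, with none at 0. Their part in the Rgs10 values was not tested.

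Rgs7 (chromosome 1, 175059084 to 175492750), the more abundant R7 member, was at 40.3, 38.3 and 40.2 FPKM in saline and at 39.7, 40.8 and 38.7 in cocaine, and its log2 folds were -0.02, 0.09 and -0.05. Rgs20 (chromosome 1, 4902289 to 5070285), a brake on Gz, had the smallest spread over time, at 22.4, 23.1 and 22.6 FPKM in saline and 22.1, 22.4 and 22.1 in cocaine. All 3 cocaine groups of Rgs20 were below all 3 saline groups, by 0.0464 FPKM at the closest, with log2 folds between -0.04 and -0.02. The groups overlapped once the tables were put on the same median level.

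Across the members, no gene had all 3 cocaine groups above all 3 saline groups (3.43% of the 12613 genes had) and 2 had all of them below, Rgs9 and Rgs20 (4.55%). Any higher value in cocaine at each of the 3 time points was seen in 4 members, Rgs8, Rgs12, Rgs14 and Rgs16 (18.9% of the genes), and any lower value at each in 3, Rgs9, Rgs10 and Rgs20 (14.5%), of which Rgs10 and Rgs20 turned at 7 d once the trend with length was removed. Rgs14 was above saline by 0.00 at 24 h and turned to -0.01 once centred on the median of all genes. When the fold was combined with the range of the saline groups, 1 member was above them at 2 h (Rgs2) and 1 below (Rgs9; 3.81% of the genes). At 24 h none was above (2.34%) or below (1.71%). At 7 d none was above (2.19%) and 2 were below, Rgs2 and Rgs9 (3.84%).

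The other genes of the pathway were taken from 5 lists of symbols. Of 15 other genes of the RGS fold and its partners, 14, 14 and 15 were found by name at 2 h, 24 h and 7 d. Of these, 8, 8 and 9 passed the level minimum. Axin2 was found only at 7 d, so counts and medians over time are not over the same genes. At 2 h 3 of them were past the fold downward (5.23% of all genes were) and none upward (7.2%). At 24 h 1 was lower (3.81% of all genes), and at 7 d none was past the fold (7.82% lower and 5.2% higher over all genes), with median log2 folds of -0.08, -0.03 and 0.04. Rgs3, an R4 protein, was at 9.02, 8.79 and 8.81 FPKM in the saline groups and at 6.17, 6.77 and 8.87 in the cocaine groups, with log2 folds of -0.54, -0.37 and 0.01. Rgs19, an RZ protein that acts on Gi, was at 11.1 and 8.54 FPKM in saline and cocaine at 2 h, with log2 folds of -0.37, -0.02 and -0.21 at 2 h, 24 h and 7 d. Rgs11, an R7 protein, was at 2.66 and 2.08 FPKM at 2 h but at 2.4 and 2.97 at 24 h. The log2 folds of Rgs11 were -0.34, 0.30 and -0.19. Rgs7bp, the membrane anchor of the R7 complex, was at 42.8 and 45.8 FPKM at 2 h, with log2 folds of 0.10, -0.09 and 0.04.

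The G proteins on which the members act are given next. Of the alpha subunits 14, 14 and 15 were found by name at 2 h, 24 h and 7 d, and 11, 11 and 12 passed the level minimum. Gnai3 was found only at 7 d. The only 1 past the fold was Gna15 (7.2% of all genes were higher at 2 h). Gna15 had 1.08 FPKM in the saline and 1.75 in the cocaine group of 2 h (log2 fold 0.66). The median log2 folds of the alpha subunits were 0.10, -0.03 and 0.08. Of the beta and gamma subunits 14, 14 and 13 were found by name, and 12, 12 and 11 passed. Gng7 passed at 2 h and 24 h and was not found at 7 d. None was past the fold at 2 h, 2 were lower at 24 h (3.81% of all genes were) and 3 at 7 d (7.82%). The lower ones were Gng11 (-0.59) and Gngt2 (-0.42) at 24 h, and Gng13 (-0.48), Gng5 (-0.47) and Gngt2 (-0.39) at 7 d. These were the only pathway genes past the fold at 7 d. With the trend over transcript length removed, 1 pathway gene in place of 3 was past it there, and with the trend over level removed more were. Gnb5, the obligate partner of Rgs7 and Rgs9, was at 53.5, 53.9 and 53.1 FPKM in saline and at 51.2, 51.4 and 49 in cocaine, with log2 folds of -0.06, -0.07 and -0.11. Of 6 exchange factor and GoLoco genes only Pcp2 was past the fold (-0.33 at 2 h, when 5.23% of all genes were lower). None of 6 receptor kinases and arrestins was, with median log2 folds of 0.03, -0.03 and 0.15.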

How the data were processed

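RNA of 12 libraries was extracted with Trizol, enriched for poly(A) RNA and sequenced in paired ends on a HiSeq2000. Per the labels and methods, the authors trimmed the reads (with Trimmomatic 0.32 in the processing notes and cutadapt in the methods), aligned them with TopHat2 2.0.12 and discarded reads with more than 1 mapping position. They ran Cuffdiff separately for every time point (Cufflinks 2.2.1 in the processing notes, an earlier version in the methods). The processing notes name GRCm38, the methods mm9; the positions are those of GRCm38. The authors deposited 1 table per time point with an FPKM per group pooled over its libraries, and also their own fold changes, test statistics, p and q values, which were not used. The read length differs between labels and methods. The columns carry no treatment name. Their group codes have a leading C in the first column and none in the second, whereas the labels shorten control to CC and cocaine to C, so the codes alone could be read the other way round and every direction rests on the study's gene tables, from which the first column was taken as saline: 378 of 456, 12 of 14 and 485 of 530 genes matched within 2% in that order, and 0 in the other.

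Python 3.11.15, pandas 2.3.3, numpy 2.4.6 and matplotlib 3.10.9 were used. Rows with a failed or over-depth flag (175, 169 and 204) were left out. A gene name on several rows took the longest locus, and at equal length the row with the higher mean FPKM. Transcript lengths were those of the longest coding transcript of the symbol (82.8, 82.1 and 82.2% of genes kept), from an annotation of another build that was used for lengths only. The trends with length and level were medians in 20 groups of genes; "like level" means the same group. The steps were tested on data with planted folds, which were larger than the fold limit and lay in genes of higher level than Rgs9 and Rgs16. That test therefore does not cover folds near the limit or genes at such low levels. The members and lists were chosen with earlier results of these data known; all members were named, and of each pathway list at most 4 genes past the fold. Rgs7bp, Gnb5, Drd1a, Drd2, Gpr6, Sh3rf2, Neurod6, Ttr, Folr1, Kl, Clic6, Mag, Mobp, Axin2, Gnai3 and Gng7 were named after their values were seen. No test across libraries was made, since the values are pooled.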

Additional observations from a re-analysis of the deposited data

Results flagged for a closer look

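The difference between cocaine and saline for Rgs2 drew attention because it was past the fold limit (25% above or 20% below saline) in opposite directions at 2 time points, higher at 2 h (log2 fold 0.35) and lower at 7 d (-0.32). The values differ by 0.67 on the log2 scale. Each is 1 pooled value per group, and the difference between the time points was not tested. No group of single samples was available to be searched for samples that stand apart.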

How the results depend on the processing

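There were 11 other settings and 1 chosen after the data were seen (summing the rows of a gene name). The log2 folds were not recomputed for another minimum, another fold or tables on the same median level, which leave them as they are. Taking the row of highest level could not change any member, and summing rows could change only Rgs9 at 24 h. The other agreement in these settings was fixed in advance. With them included, 204 of 210 recomputed log2 folds of members stayed on their side of the fold limit. The other 6 came inside it: Rgs2 at 7 d with 1 FPKM added (-0.30), with centring (-0.31) and with the trends of length (-0.32) or level (-0.30) removed, and Rgs9 with 1 FPKM added (-0.28 at 2 h and -0.26 at 7 d). None past the fold changed sign, while 6 smaller values at 7 d did, of Rgs4, Rgs7, Rgs10 and Rgs20 (0.01 to 0.07 with a trend removed), as did Rgs14 at 24 h (0.00 against -0.01). The count of members lower at 2 h was 0 in place of 1 with 1 FPKM added, a minimum of 5 FPKM or a fold of 1.5, and the count higher at 2 h was 0 with a fold of 1.5. The count lower at 7 d was 1 in place of 2 with centring, either trend removed or a minimum of 5 FPKM, and 0 with 1 FPKM added or a fold of 1.5. Counts of members outside the saline range moved alike, and the count below it at 7 d was 0 with the tables on the same median level. In that setting the counts of members with separate groups were 1 above and 0 below, and with rows summed 1 was below. The pathway genes past the fold numbered 5, 3 and 3 at 2 h, 24 h and 7 d. The 5 lists kept 8, 11, 12, 6 and 6 genes at 2 h and 24 h, and 9, 12, 11, 6 and 6 at 7 d. Of all genes, 7.2, 4.13 and 5.2% were past the fold upward at these times and 5.23, 3.81 and 7.82% downward. The shares over all genes were not computed in the other settings, so the counts below stand without them. At 2 h they became 3 with 1 FPKM added, 2 with a minimum of 5 FPKM, 10 with no minimum and 1 with a fold of 1.5. At 24 h they became 6 with no minimum and 1 with a fold of 1.5. At 7 d they became 1 with the trend of length removed, 5 with that of level removed, 6 with no minimum or a fold of 1.2, and 0 with a fold of 1.5. A minimum, a fold or rows summed change the genes that can count; otherwise the cause was not tested. No paired analysis was possible because each deposited column is pooled over both replicates, and for the same reason no replicate could be left out. The reads behind each value are unknown, since depth is given only as a range over the libraries, which limits Rgs9 and Rgs16, the lowest members, most.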
